A study of Homo sapiens with 4 samples.

Results

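Glycolysis splits glucose into pyruvate. Lactate dehydrogenase then turns pyruvate into lactate, which leaves the cell through monocarboxylate transporters, or the pyruvate dehydrogenase complex feeds it into the mitochondrial citric acid cycle. Many tumour cells favour lactate even when oxygen is present, and hypoxia-inducible factors are known to raise transcription of most genes on that route. The module described here holds 34 genes, where 19775 could be read in all, of glucose uptake, glycolysis, lactate formation and export, and pyruvate dehydrogenase with its kinases and phosphatase. Its members were chosen by name, and each was read from every probe set whose platform annotation gave that gene symbol alone. A probe set is a small group of oligonucleotides that reads a transcript. Such probe sets were present for 32 of the 34 genes, 78 probe sets in all, 3 of which are the array's own control probe sets for GAPDH. The lactate transporters SLC16A1 and SLC16A3 had no such probe set in the annotation used, so lactate export itself was not analysed here.

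RNA came from CL1-0 and CL1-5, established human lung adenocarcinoma lines, of which CL1-5 is known as the more invasive. The CL1-0 groups carried an AK4 vector or its control vector. The CL1-5 groups carried AK4 shRNA or non-silencing shRNA. AK4 is a mitochondrial adenylate kinase. All 4 cultures were stably transduced and selected with puromycin, and neither the promoters of the vectors nor whether the cultures were clones is given in the sources used here. Each group was 1 array (Affymetrix, 1 colour), so no value has a replicate error, no test between groups was possible, and 1 array per group limits the precision of every value. Signals were scaled to a common trimmed mean and are in arbitrary units, with a floor at 6.94 (the 40th percentile of all values). In ratios and calls, values below it were treated as having no order. Ratios are on the log2 scale, and a gene was called higher or lower where the ratio reached 2-fold, or 1 on that scale. Of the 32 genes, 30 lay above the floor on all 4 arrays. ENO2 did so on 3, and PDK4, a kinase that shuts off pyruvate dehydrogenase in fasting tissues, lay below it on all 4, at 2.39 to 3.48.

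The labels and the RNA were checked first. The 4 AK4 probe sets were lower with AK4 shRNA in CL1-5, by log2 ratios of -0.88 to -1.25, but none was higher on the CL1-0 array labelled AK4 vector, where they ran from -0.25 to -0.05, so directions drawn from that array rest on its label. Alveolar type II cells are the labelled cell type. Of their 8 markers with a probe set, 7 exceeded the floor in CL1-0 control cells and 5 on each CL1-5 array. SLC34A2 was below it on all 4. These markers summed to 401 and 347 on the CL1-0 arrays and to 137 and 133 on the CL1-5 arrays. LAMP3 was bright in CL1-0 alone (210.0 and 160.1 against 5.08 and 4.66), while NAPSA went the other way (9.50 and 8.99 against 19.6 and 19.2). The 5 epithelial markers summed to 36.9 and 43.6 on the CL1-0 arrays and to 1997 and 1758 on the CL1-5 arrays, nearly all of it keratins KRT18 and KRT8, while EPCAM and CDH1 were under the floor on all but the array labelled AK4 vector. For beta-actin the signal at the 3' end over that at the 5' end, a sign of RNA quality, was 6.04 and 6.54 on the CL1-0 arrays against 1.34 and 1.61 on the CL1-5 arrays, and for the module's own GAPDH it was 1.25 and 1.54 against 1.04 and 1.07. Markers of fibroblasts summed to between 87.5 and 125, those of endothelium to between 23.4 and 72.4 and those of leukocytes to between 19.0 and 24.3, the first 2 sums being higher in CL1-5. The endothelial sum was higher mainly through PECAM1, at 7.12 and 6.20 in CL1-0 against 45.1 and 54.0 in CL1-5. Leukocyte sums of the lines overlapped. Keratin level, the type II, fibroblast and endothelial sums and the 3' to 5' ratio therefore moved with the line. Their part in the differences between lines was not tested.

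**Figure D1:**
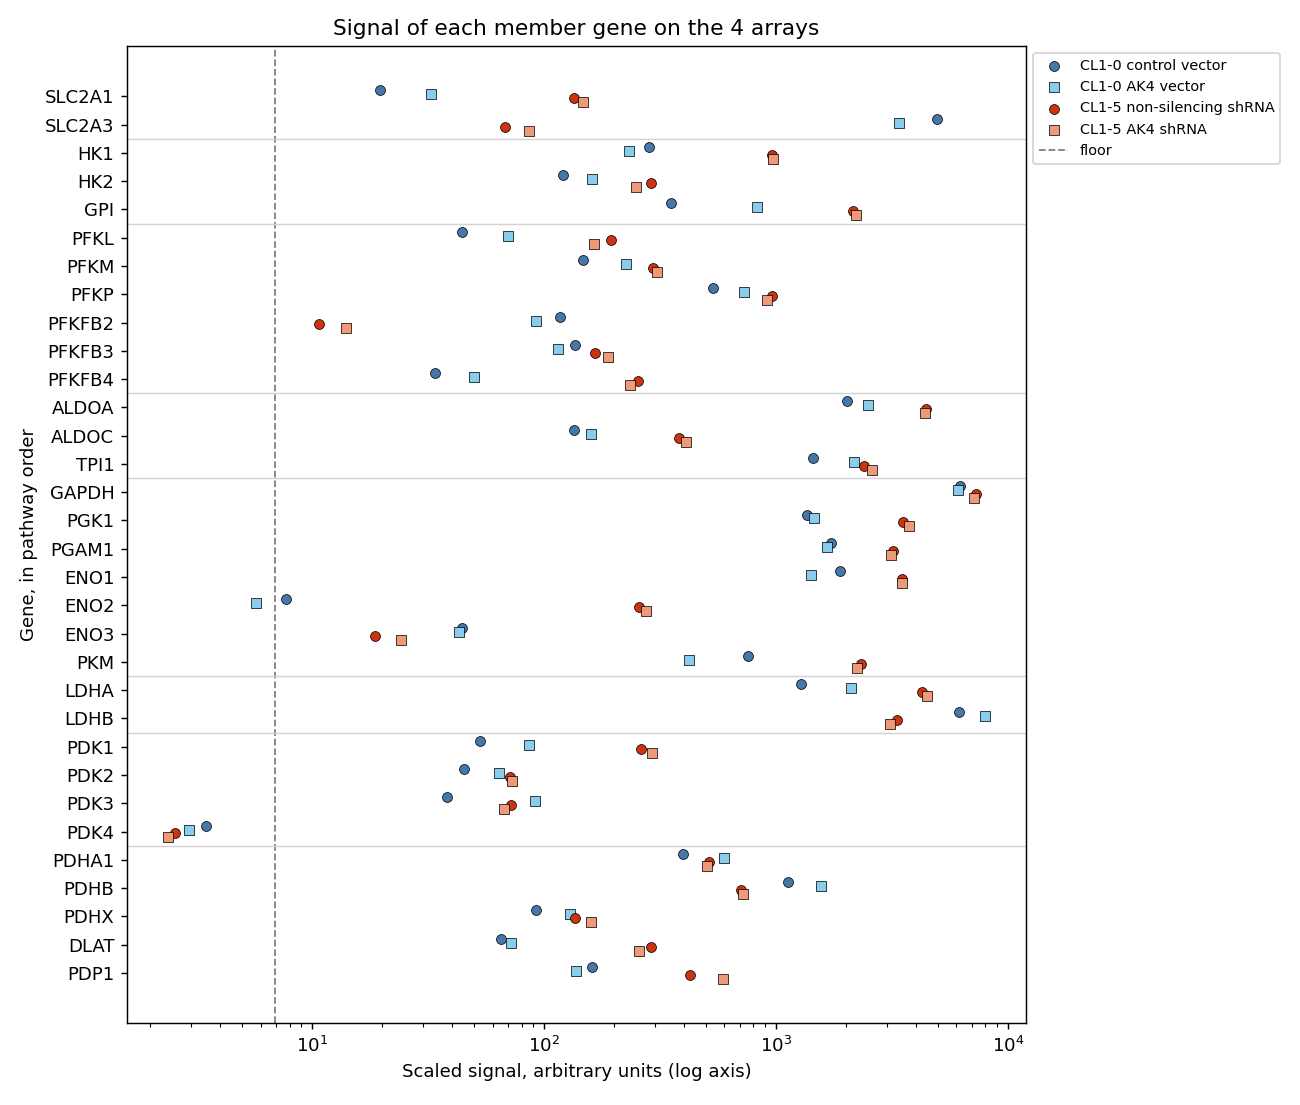
Scaled signal (log axis, arbitrary units) of the brightest probe set of each of the 32 genes on the 4 arrays, 1 point per array, with the floor as a dashed line and grey lines between steps of the pathway. Most genes have both CL1-5 points to the right of both CL1-0 points, whereas SLC2A3, PFKFB2, ENO3, LDHB and PDHB have them to the left. PDK4 also has them to the left, but all its points lie below the floor.

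The widest differences in the module lay between the lines. On the control arrays, 15 of 31 measured members were at least 2-fold higher in CL1-5 and 3 were at least 2-fold lower, where 17.1% of all measured genes were higher and 14.2% lower, 31.3% either way. The members' median log2 ratio was 0.997, against 0.13 over all genes. The pair of arrays with altered AK4 shares no array with the control pair, though line and alteration cannot be told apart in it. There 14 of 31 members were at least 2-fold higher in CL1-5 and 4 lower, against 14.7% and 14.8% of all genes, 29.5% either way, with a median of 0.82 against 0.07. Calls were made in the same direction on both pairs for 13 members higher in CL1-5 and for 2 lower. Over all genes, 1887 were called higher on both pairs and 1720 lower, of 15969 measured between the control arrays. Both CL1-5 arrays lay above both CL1-0 arrays for 24 of the 31 members, against 44.9% of all genes above the floor on at least 1 array, and below them for 5, against 35.4%. This order was read from scaled signals without the floor, so the shares of all genes include orders set by values under it. With quantile normalization the members' median on the control arrays was 1.39 while that of all genes was -0.06. In that setting 21 members were higher and 3 lower, beside 12.4% and 16.4% of all genes.

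**Figure D2:**
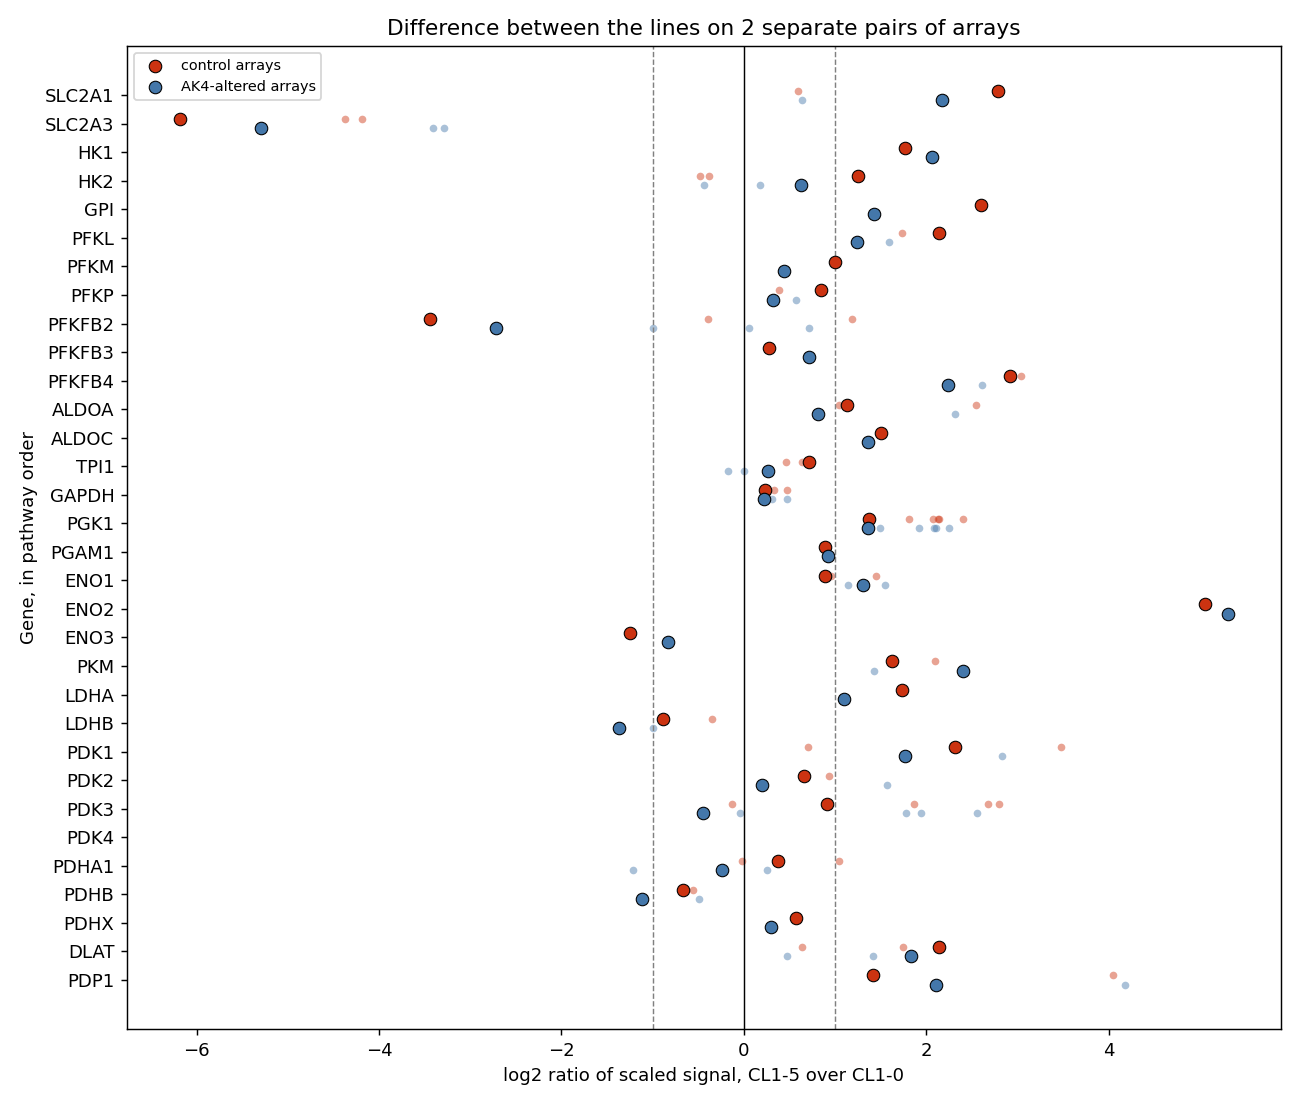
Log2 ratio of CL1-5 over CL1-0 for each gene, on the control arrays (red) and on the arrays with altered AK4 (blue), with large points for the brightest probe set, small points for the other measured probe sets and dashed lines at 2-fold. Most genes lie to the right of 0 on both pairs of arrays, and SLC2A3 and ENO2 lie farthest out in opposite directions.

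Glucose enters through facilitative transporters, and here the lines differed in opposite directions. SLC2A3 (GLUT3), a high-affinity transporter best known from neurons, had a signal of 4927 with control vector and 3376 on the array labelled AK4 vector in CL1-0. In CL1-5 it read 67.6 in non-silencing control cells and 85.9 with AK4 shRNA. Both CL1-0 arrays were thus far above both CL1-5 arrays, with a log2 ratio of -6.19 on the control pair, 72.9-fold lower in CL1-5, and -5.30 on the other pair. The other SLC2A3 probe sets had the same order, with 202498_s_at at 1103, 531, 53.1 and 54.6, and 202497_x_at at 2252, 1309, 123 and 124. Their ratios on the control pair were smaller, at -4.38 and -4.19. Probe sets with these suffixes may also read related sequence, and 2 further probe sets that the annotation gives to SLC2A3 together with its close relative SLC2A14 were left out, so the share of each gene in these signals is uncertain.

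SLC2A1 (GLUT1), the broadly expressed transporter of growing cells, ran the other way. Its brighter probe set 201250_s_at read 19.7 and 32.6 on the CL1-0 arrays and 135 and 147 on the CL1-5 arrays, so the lines did not overlap and the log2 ratio was 2.78 on the control pair and 2.17 on the other. The dimmer probe set 201249_at was below the floor in CL1-0, at 5.23 and 5.47, and above it on both CL1-5 arrays, at least 1.51-fold higher on the control pair. The log2 ratio of SLC2A1 exceeded that of SLC2A3 by 8.97 on the control arrays and by 7.47 on the others. That difference of ratios is unaffected by any factor that scales a whole array.

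**Figure D3:**
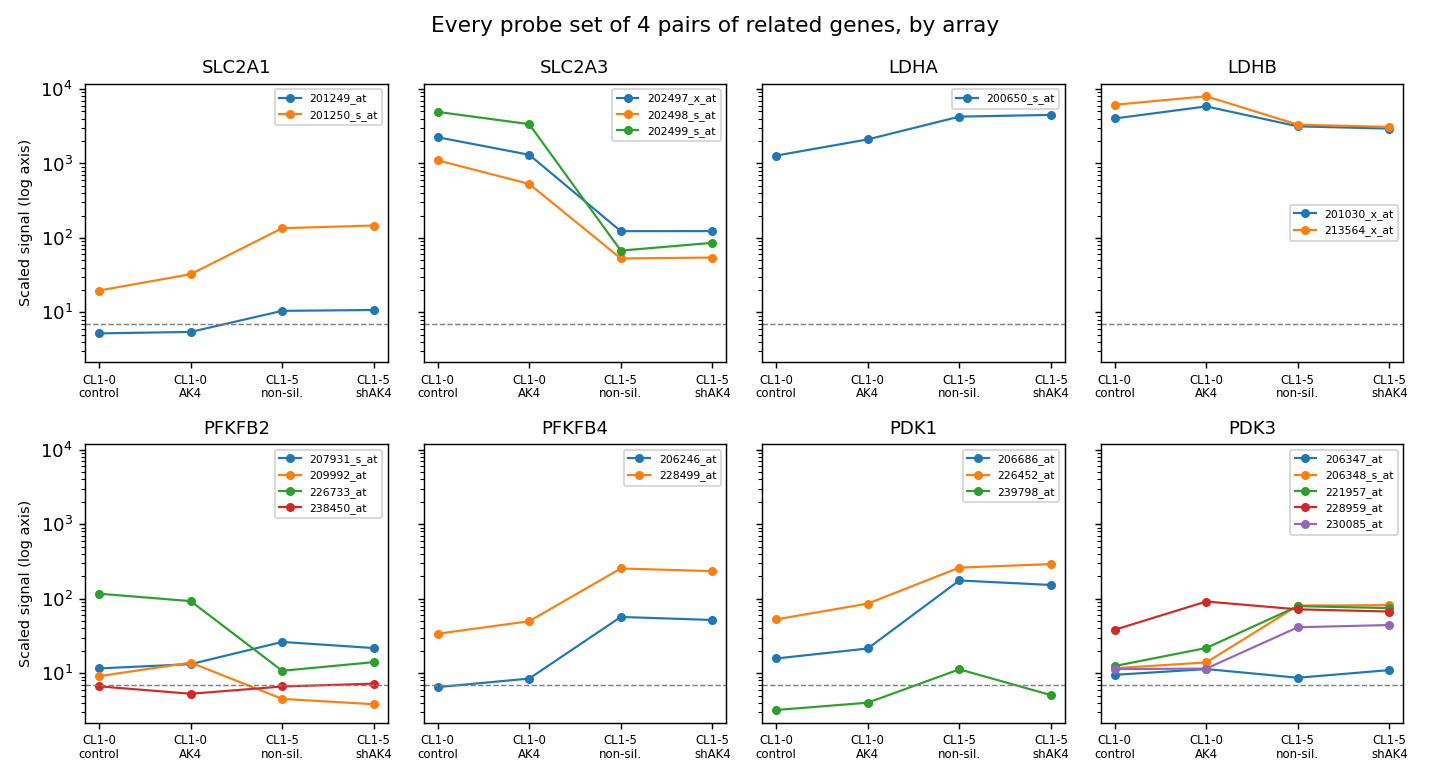
Scaled signal (log axis, arbitrary units) of every probe set of 8 genes on the 4 arrays, with 1 colour per probe set, lines that only join values of the same probe set, and the floor dashed. SLC2A3 is at 531 or more on both CL1-0 arrays and at 124 or less on both CL1-5 arrays with all 3 probe sets, while the probe sets of PFKFB2 and PDK3 do not run in parallel.

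The enzymes that trap and isomerise glucose were brighter in CL1-5. Hexokinase HK1, which phosphorylates glucose at the mitochondrial surface in most tissues, read 283 and 233 in CL1-0 and 963 and 973 in CL1-5, a log2 ratio of 1.77 on the control pair. HK2, the inducible hexokinase of muscle and many tumours, read 121 and 161 against 288 and 249 with its brightest probe set, a ratio of 1.26. Its other probe sets, 222305_at and 239410_at, gave -0.48 and -0.38, and averaging all its probe sets put the HK2 ratio at 0.13. GPI, which converts glucose 6-phosphate to fructose 6-phosphate, read 354 and 825 in CL1-0 and 2149 and 2225 in CL1-5, so the lines did not overlap although the CL1-0 arrays differed by more than 2-fold from each other. Its ratio was 2.60 on the control pair and 1.43 on the other.

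Phosphofructokinase, the main control point of glycolysis, is built from the subunits PFKL, PFKM and PFKP. PFKL read 44.1 and 69.7 in CL1-0 and 194 and 165 in CL1-5 with probe set 211065_x_at, a control-pair ratio of 2.13, and its other probe set gave 1.73. PFKM, the muscle-type subunit, lay just under the 2-fold line at 0.997, and PFKP, the platelet-type subunit, was at 0.85. Skeletal muscle markers were dim on all arrays, with 3 probe sets summing to between 16.6 and 23.5. The bifunctional PFKFB enzymes set the level of fructose 2,6-bisphosphate, which activates phosphofructokinase. PFKFB4 read 33.8 and 49.9 in CL1-0 and 255 and 234 in CL1-5, a ratio of 2.91 that its dimmer probe set, which lay under the floor on the CL1-0 control array, placed at 3.03 or more. PFKFB3, the form with the strongest kinase activity, was at 0.28.

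PFKFB2, best known from heart, was lower in CL1-5 by its brightest probe set 226733_at, which read 117 and 92.8 in CL1-0 and 10.8 and 14.1 in CL1-5, a ratio of -3.44. Its probe set 207931_s_at pointed the other way at 1.18, and averaging the probe sets gave -0.66. A dim probe set, 209992_at, was under the floor in CL1-5 and gave -0.39 or below. The direction of PFKFB2 thus differed between its probe sets, for which the cause was not tested.

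From fructose bisphosphate to pyruvate, signals were mostly higher in CL1-5. Aldolase ALDOA read 2024 and 2504 in CL1-0 and 4427 and 4410.4 in CL1-5, a control-pair ratio of 1.13, and the probe set 238996_x_at gave 2.54. ALDOC, the brain-type aldolase, was 2.84-fold higher and the triose isomerase TPI1 had a log2 ratio of 0.72. Phosphoglycerate kinase PGK1, the first ATP-yielding step, was read by 6 probe sets, all of them higher in CL1-5 on the control pair by 1.37 to 2.41. The brightest, 200738_s_at, read 1361 and 1459 in CL1-0 and 3516 and 3734 in CL1-5, and gave the smallest of the 6 ratios. Phosphoglycerate mutase PGAM1 was at 0.89.

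GAPDH, often used as a constant reference, differed least among the genes of lower glycolysis. Its probe set 212581_x_at read 6245 and 6085 in CL1-0 and 7312 and 7111 in CL1-5, a ratio of 0.23 on the control pair. The value of 7312 was the highest of all 54675 probe sets on that array. Whether signals this bright are compressed was not tested, but the 3 control probe sets along the GAPDH transcript gave 0.19 at the 3' end, 0.35 in the middle and 0.45 at the 5' end.

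The enolases, which form phosphoenolpyruvate, split by isoform. ENO2, the neuronal-type enolase, had a signal of 7.69 on the CL1-0 control array, next to the floor, and 5.72 on the array labelled AK4 vector, below it. In CL1-5 it read 256 and 275. The log2 ratio was 5.06 on the control pair, 33.3-fold higher in CL1-5, and on the other pair CL1-5 was at least 39.6-fold higher. The size rests on a CL1-0 signal near the floor. A floor at the 60th percentile put the control-pair ratio at 3.93 or more. Without rescaling, where both CL1-0 arrays lay under that setting's floor, it was 5.64 or more. ENO1, the common form, was at 0.89 on the control pair and 2.47-fold higher on the other, and its 4 probe sets ran from 0.88 to 1.44 on the control pair. ENO3, the muscle-type form, was dim and lower in CL1-5, at 44.5 and 42.9 against 18.7 and 24.1, a ratio of -1.25 on the control pair and -0.83 on the other. Without rescaling of the arrays these were -0.38 and 0.08, and the mean of its probe sets gave -0.62 on the control pair, so the 2-fold call ended in both settings. Pyruvate kinase PKM, which yields pyruvate and ATP, read 755 and 421 in CL1-0 and 2317 and 2231 in CL1-5, ratios of 1.62 and 2.41.

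Lactate dehydrogenase is a tetramer of LDHA chains, associated with lactate formation, and LDHB chains, associated with lactate use. LDHA read 1277 with control vector and 2105 on the array labelled AK4 vector, and in CL1-5 4257 with non-silencing and 4495 with AK4 shRNA. LDHB read 6146, 7988, 3318 and 3099 in the same order. LDHA was therefore above and LDHB below on both CL1-5 arrays, with control-pair ratios of 1.74 and -0.89 and ratios of 1.09 and -1.37 on the other pair. Without rescaling of the arrays the LDHB ratio was -0.02 on the control pair and -0.45 on the other. The ratio of LDHA exceeded that of LDHB by 2.63 on the log2 scale on the control arrays and by 2.46 on the others, and neither value depends on the scale of an array. The other LDHB probe set, 201030_x_at, had the same order at 4021, 5843, 3153 and 2939.

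Pyruvate dehydrogenase kinases switch the pyruvate dehydrogenase complex off. PDK1, the form known as a hypoxia target, read 52.7 and 86.0 in CL1-0 and 261 and 292 in CL1-5 with 226452_at, and 15.7 and 21.4 against 176 and 153 with 206686_at. Both of these probe sets separated the lines, with control-pair ratios of 2.31 and 3.48. A dim probe set, 239798_at, exceeded the floor only in CL1-5 non-silencing cells, at 11.3, and gave 0.70 or more on that pair. PDK2, the widely expressed kinase, was at 0.66. PDK3 was read unevenly. Its brightest probe set 228959_at read 38.3 and 91.6 in CL1-0 and 72.0 and 67.2 in CL1-5, so the lines overlapped, whereas 206348_s_at and 221957_at read 11.7 to 21.8 in CL1-0 and 74.7 to 81.9 in CL1-5, with control-pair ratios of 2.79 and 2.67.

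On the control pair, 1 of 3 measured kinases and 2 of 5 genes of the complex and its phosphatase were at least 2-fold higher in CL1-5. None was at least 2-fold lower. Of all measured genes, 17.1% were higher and 14.2% lower, and groups this small cannot be told from those shares. PDHA1, the catalytic subunit that the kinases phosphorylate, was read unevenly. Its brightest probe set 200980_s_at read 397 and 595 in CL1-0 and 514 and 503 in CL1-5, so the lines overlapped. Probe set 1555864_s_at read 282 and 482 against 583 and 573, without overlap and with a control-pair ratio of 1.05, and 200979_at gave -0.02. PDHB, its partner subunit, was lower in CL1-5, at 1124 and 1564 against 708 and 719, a ratio of -0.67 on the control pair that was 0.20 without rescaling of the arrays. On the other pair it was -1.12, and the 2-fold call ended with quantile normalization at -0.80, without rescaling at -0.21, with loess centring at -0.75 and with the mean of its probe sets at -0.81. DLAT, the acetyltransferase core, was higher in CL1-5, at 65.4 and 72.1 against 288 and 257, a ratio of 2.14. Its probe set 213149_at gave 0.63. PDHX, which anchors the complex, was at 0.57. The phosphatase PDP1, which reverses the kinases, was at 1.41 with 222572_at and at 4.04 with 218273_s_at, the latter reading 11.2 and 9.45 in CL1-0 and 184 and 171 in CL1-5. The kinase PDK1 and the phosphatase PDP1 were thus both brighter in CL1-5, and with the brightest probe set of each the log2 ratio of PDK1 exceeded that of PDHA1 by 1.94 on the control arrays. On the others the log2 ratios were 1.76 and -0.24.

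A further 58 genes of the same pathways and their regulators were read as a list, 43 of them measured between the control arrays. Of these, 9 were at least 2-fold higher in CL1-5 and 5 at least 2-fold lower. These are 20.9% and 11.6% of the list, beside 17.1% and 14.2% of all genes. The alpha subunits of the hypoxia-inducible factors, EPAS1 and HIF1A, were among the former, while their shared partner ARNT was within 2-fold at -0.93. EPAS1 (HIF-2 alpha) read 57.8 and 46.8 in CL1-0 and 1142 and 1360 in CL1-5, a control-pair ratio of 4.30, and HIF1A read 757 and 685 against 2578 and 2661, a ratio of 1.77. Pyruvate carboxylase PC, which makes oxaloacetate from pyruvate, was at 3.18, phosphoglucomutase PGM1, which links glycogen to glycolysis, at 2.14, and TXNIP, an inhibitor of glucose uptake, at 2.13. PCK2, the mitochondrial enzyme that makes phosphoenolpyruvate from oxaloacetate, was lower, at 528 and 464 in CL1-0 against 57.4 and 66.2 in CL1-5, a ratio of -3.20. On the pair of arrays with altered AK4 the list had 11 of 43 higher and 5 lower, beside 14.7% and 14.8% of all genes. The chaperones of lactate transporters went in opposite directions on the control pair, BSG at 0.75 and EMB at -0.66. Among monocarboxylate transporters on the list, SLC16A5 was lower at -1.56, SLC16A8 was at 0.14, and SLC16A4 and SLC16A7 lay below the floor.

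Promoters of members are shown as sequence because hypoxia-inducible factors are known to act on many genes of this route through a short DNA element. RefSeq start sites on GRCh38.p14 gave a window from 250 bases before to 50 bases after the outermost start of 30 of the 34 members. The windows were searched on both strands for ACGTG and GCGTG, the core of the element that hypoxia-inducible factors bind. Overlapping matches counted as 1, so that the E-box CACGTG, which holds ACGTG on each strand, gave 1 match. At least 1 match was present in 21 of 30 member windows, or 70.0%, and in 48.4% of the windows of all 27305 genes in the table. The member windows also had a higher GC content, with a median of 69.8% against 58.3%. At least 2 matches were present in 10 of 30 member windows and in 20.0% of all. The 250 bases before the start are given here for 3 members that were higher in CL1-5 and for PDHB, which was lower, with matches in capitals and the last base next to the start.
PGK1, chrX:78103998-78104247, plus strand: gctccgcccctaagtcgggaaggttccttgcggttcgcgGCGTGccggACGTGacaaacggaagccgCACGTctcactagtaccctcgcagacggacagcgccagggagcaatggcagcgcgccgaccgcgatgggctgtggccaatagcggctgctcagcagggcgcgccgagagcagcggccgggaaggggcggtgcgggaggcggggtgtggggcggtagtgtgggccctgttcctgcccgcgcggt
LDHA, chr11:18394313-18394562, plus strand: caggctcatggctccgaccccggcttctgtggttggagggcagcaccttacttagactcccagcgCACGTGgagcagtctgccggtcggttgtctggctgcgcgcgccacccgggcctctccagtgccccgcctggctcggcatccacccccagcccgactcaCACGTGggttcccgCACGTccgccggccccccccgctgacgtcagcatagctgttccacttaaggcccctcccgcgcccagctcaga
ENO2, chr12:6914330-6914579, plus strand: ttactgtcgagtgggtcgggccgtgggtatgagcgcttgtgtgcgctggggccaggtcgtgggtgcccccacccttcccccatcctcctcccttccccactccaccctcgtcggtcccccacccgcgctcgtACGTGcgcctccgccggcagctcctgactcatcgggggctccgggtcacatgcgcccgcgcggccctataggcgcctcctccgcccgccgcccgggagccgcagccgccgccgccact
PDHB, chr3:58433833-58434082, minus strand: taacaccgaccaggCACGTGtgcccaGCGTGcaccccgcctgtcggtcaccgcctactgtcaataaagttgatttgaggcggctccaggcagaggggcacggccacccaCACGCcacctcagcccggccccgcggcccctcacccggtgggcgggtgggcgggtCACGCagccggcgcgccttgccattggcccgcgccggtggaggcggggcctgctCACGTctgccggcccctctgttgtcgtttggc

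These stretches held 3 matches for PGK1, beginning 211, 202 and 183 bases before the start, 3 for LDHA at 185, 87 and 73 bases, and 1 for ENO2 at 118 bases. PDHB, whose signal was lower in CL1-5 after scaling, held 5, the most among the 30 members. SLC2A1, HK1, PKM and PDK1, called higher in CL1-5 on both pairs, were among the members with none in the 250 bases before the start. This says only that these letters are not there. The longer windows of SLC2A1 and PKM, which run 50 bases past the start, held 1 each. No binding was measured, and the matches describe sequence alone.

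The comparison within CL1-0 asked what differs when an AK4 vector is added. Of 31 measured members, 2 reached 2-fold upward and 0 downward on the array labelled AK4 vector, where 3.22% of all measured genes were higher and 1.17% lower, 4.39% either way. The 2 genes were GPI, at 825 against 354 on the control array, a log2 ratio of 1.22, and PDK3, at 91.6 against 38.3, a ratio of 1.26. GPI had 1 probe set. The 5 probe sets of PDK3 ran from 0.02 to 1.26, and their mean ended the call. The median over the members was 0.38, against 0.05 over all genes, and 20 of 31 members, or 64.5%, were above 0, against 56.1% of all genes. Averaging probe sets made the members' median 0.22, against 0.03 over all genes. The beta-actin and GAPDH 3' to 5' ratios given above differed between these arrays too, and their part in these values was not tested.

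Of the 7 genes from GAPDH to PKM, 6 had a ratio below 0 in CL1-0 and none passed 2-fold. GAPDH, ENO3 and PGAM1 lay between -0.06 and -0.04, ENO1 was at -0.41 and PKM at -0.84. ENO2, under the floor on the array labelled AK4 vector, was at -0.15 or below. PKM was read at 421 against 755 by 201251_at, but its dim probe set 213700_s_at gave 0.92, and the mean of its probe sets was at 0.04. All 3 measured kinases were above 0, with PDK1 at 0.71 and PDK2 at 0.50, though the second PDK2 probe set gave -0.71. Both lactate dehydrogenase genes were above 0, LDHA at 0.72 and LDHB at 0.38. Among the subunits of pyruvate dehydrogenase, PDHA1 was higher with all 3 probe sets, at 0.58, 0.77 and 1.11, and PDHX was at 0.49. PDHB was at 0.48 with 211023_at but at -0.11 with 208911_s_at. The DLAT probe sets ran from 0.14, for the brightest, to 0.48. SLC2A1 was at 0.73. All 3 SLC2A3 probe sets were lower, at -0.55, -0.78 and -1.05. For 13 of the 19 members with several measured probe sets, all of them had the same sign. Probe sets of the same member had a pooled SD of 0.40, which is not a replicate error and is close in size to most of these ratios. Of the wider list, PGM2, which acts on pentose and hexose phosphates, was at 1.01 and ARRDC4, a relative of TXNIP, at -1.10.

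In CL1-5 the module hardly differed when AK4 was silenced. None of the 31 measured members reached 2-fold in either direction, where 0.0914% of all measured genes were higher and 0.0131% lower, 0.104% either way. The members ran from -0.23 for PFKL to 0.47 for PDP1, with a median of 0.03 against -0.001 over all genes and a pooled SD between probe sets of 0.21. PDP1 read 590.1 with AK4 shRNA and 427 without by 222572_at, but its other probe set was at -0.10. PFKFB2, ENO3 and SLC2A3 followed at 0.39, 0.36 and 0.35, and the other SLC2A3 probe sets were at 0.002 and 0.04. SLC2A1, LDHA, PKM and PDK1 were at 0.12, 0.08, -0.05 and 0.16. With averaged probe sets PKM was at 0.10 and PDK1 at -0.25, where the dim PDK1 probe set 239798_at gave -0.70 or below. None of the 43 measured genes of the wider list reached 2-fold.

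**Figure D4:**
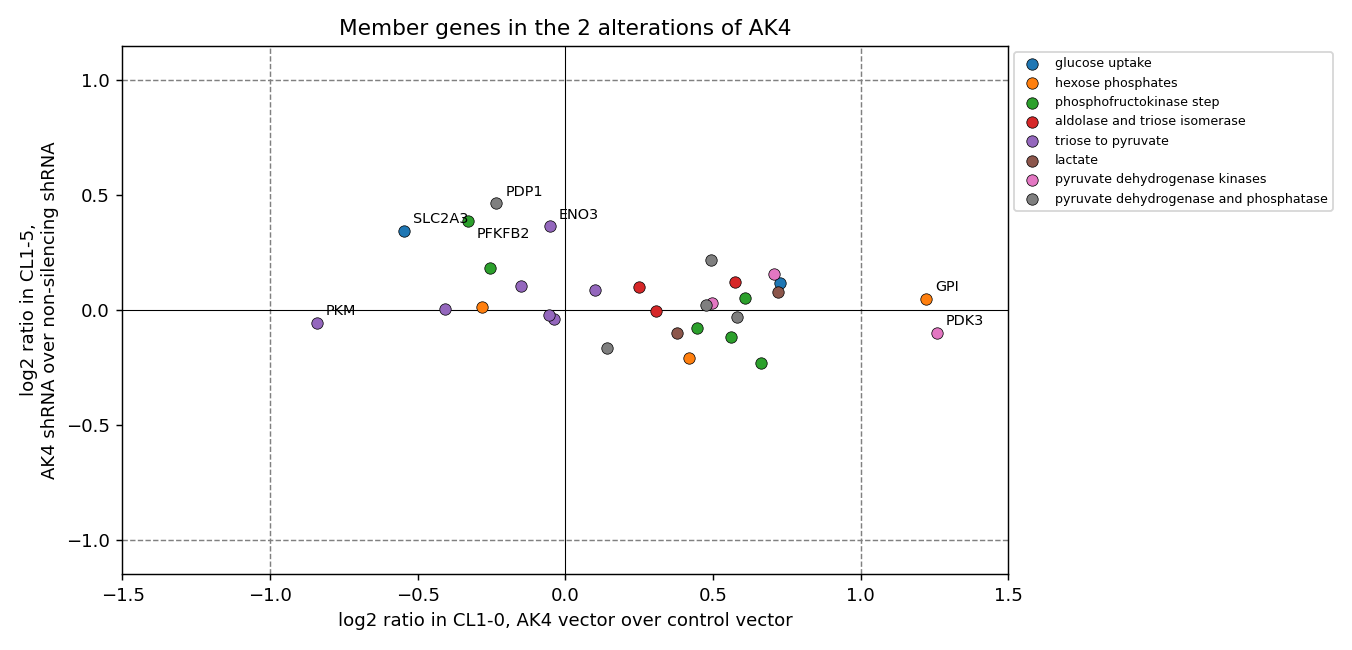
Log2 ratio of each member in CL1-0 (AK4 vector over control vector, x axis) against that in CL1-5 (AK4 shRNA over non-silencing shRNA, y axis), coloured by step of the pathway, with dashed lines at 2-fold. The points spread from -0.84 to 1.26 along x and from -0.23 to 0.47 along y, and GPI and PDK3 alone lie past 2-fold.

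By their labels the AK4 comparisons go in opposite directions, and they share no array, but the AK4 probe sets themselves were below 0 in both. Opposite signs were found for 17 of 31 members, or 54.8%, and for 46.0% of all genes measured in both. In 9 members the ratio was above 0 in CL1-0 and below 0 in CL1-5, among them PFKL at 0.66 and -0.23, and HK2 at 0.42 and -0.21. In 8 it was the reverse, among them SLC2A3 at -0.55 and 0.35, PFKFB2 at -0.33 and 0.39, and PDP1 at -0.23 and 0.47. No member passed 2-fold in both lines. Averaged over their probe sets, HK2 and PFKFB2 had the other sign in CL1-0, at -0.03 and 0.12, and several members near 0 in CL1-5 also turned. The count was then 13 of 31, or 41.9%, against 46.7% of all genes, so whether members exceeded the share of all genes depended on how probe sets were combined.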

How the data were processed

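The authors deposited linear intensities for each probe set. MAS5 is named, per the submitters' processing notes, with its version, role and scaling not given in the sources used here. The columns deposited by the authors had trimmed means of 37.5, 36.8, 68.5 and 69.4. A factor per array brought these means (2% trimmed from either end) to 1 value, control probe sets left out. Values under the 40th percentile of all scaled values were set to it, and log2 was taken. Probe sets with 1 gene symbol (41097 of 54675, with 1801 holding several and 11777 none) were used, and 99.9% of their symbols were brought up to date by gene identifier. A gene was read from its brightest probe set, controls excepted, and was measured where at least 1 of both arrays lay above the floor. Where only 1 did, the ratio is a bound for that probe set and scaling. With 1 array per group there is no test. The members and lists were chosen with earlier results of these data known. All members are named, as are the largest ratios past 2-fold of the wider list, AK4 and control probe sets. ARNT, BSG, EMB, SLC16A4, SLC16A5, SLC16A7 and SLC16A8 of the wider list were named after their values were seen. The procedure was tested on simulated data. Python 3.11.15, pandas 2.3.3 and statsmodels 0.14.6 were used. Alternatives covered scaling, centring, floor, choice of probe sets and threshold.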

Additional observations from a re-analysis of the deposited data

How the results depend on the processing

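Within the comparison of its call, no alternative turned the sign of a member called at 2-fold. Every alternative that gave the member a value kept the calls of 13 of 18 members between the control arrays. The same held for 13 of 18 between the arrays with altered AK4, and for 1 of 2, GPI, in CL1-0. SLC2A3, GPI, PFKL, ALDOA and LDHA had only _x_at or _s_at probe sets. Leaving those out gave them no value, so their calls were not tested in that setting. No paired analysis was possible because each group is 1 array. In CL1-0 the mean of all probe sets gave 1 member higher, beside 1.67% of all genes, and a median of 0.22. A threshold of 1.5-fold gave 7 higher and 1 lower. The share of all genes at 1.5-fold was not computed for any comparison, so member counts at that threshold have no background here. Between the control arrays, values as deposited gave 26 higher, beside 43.1% of all genes, and a median of 1.87. The median of all genes moved by 0.70, and 90.4% of called genes were higher against 54.6%. Quantile normalization, which moved the median of all genes by -0.19, gave a median of 1.39 and 42.9% higher, and loess centring a median of 1.42. Leaving out probe sets ending in _x_at or _s_at gave 9 higher among 20 measured members, beside 17.4% of all genes. The mean of all probe sets gave 1 lower, beside 8.54% of all genes, and the 1.5-fold threshold 22 higher and 5 lower. Between the arrays with altered AK4, values as deposited gave 24 higher and 2 lower, beside 42.4% and 4.32% of all genes. The members' median was then 1.73, with the median of all genes moved by 0.75. Medians were 1.19 with quantile normalization, which moved that of all genes by -0.13, and 1.25 with loess centring. The mean of all probe sets gave 2 lower, beside 8.98% of all genes, and a median of 1.09. Leaving out the _x_at and _s_at probe sets gave 9 higher, beside 14.6% of all genes, and a median of 0.63. SLC2A1, whose remaining probe set was under the floor in CL1-0 and gives lower bounds of 0.60 and 0.63, and DLAT, at 0.63 and 0.47, were then not called on either pair. In CL1-5 no alternative gave a call. Of the values of single members under each alternative, 8 of 206 moved by more than the SD between probe sets on the control arrays, 39 of 206 on those with altered AK4, 6 of 202 in CL1-0 and 7 of 205 in CL1-5. That SD was 0.98, 0.88, 0.40 and 0.21 in the same order. As deposited, ENO3 went from -1.25 to -0.38 on the control arrays, within the SD. On those with altered AK4 it went from -0.83 to 0.08, past the SD. A factor per array shifts all members alike, so these counts do not rank the pairs by stability. The count of members with opposite signs in the AK4 comparisons, an alternative chosen after seeing the data, was 13 of 31 when probe sets were averaged and 10 to 18 otherwise, with 18 to 32 members measured. Where a cause of these shifts is not given by the setting itself, the cause was not tested. Signal above the floor limits PDK4 and ENO2.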
